A study of Rattus norvegicus with 6 samples.

Results

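Serpine2, Serpinh1, Serping1, Serpina1 and A2m encode 4 members of the serpin family and 1 macroglobulin, proteins that mostly hold extracellular proteases in check. They were followed on 6 Affymetrix rat U34 set A arrays of whole ovaries, where the short probes of a probe set give 1 intensity for a transcript, or for a few similar transcripts. Every probe set whose only annotated symbol was 1 of these 5 genes was taken, 12 of the 8799 on the array, for 5 of 4737 named genes: 1 each for Serpine2, Serpinh1 and Serping1, 3 for Serpina1 and 6 for A2m. No probe set named any of them together with another gene. The arrays formed 3 groups of 2: ovaries removed on postnatal day 0 (P0), ovaries removed on postnatal day 4 (P4), and ovaries removed on day 0 and then kept for 7 days as whole organs on floating filters in DMEM and F-12 medium with albumin, transferrin, insulin, ascorbic acid, penicillin and streptomycin (cultured). No strain is named for the pups. Each array carried RNA of about 20 pooled ovaries, and the labels call the 2 pools of a group independent, so the spread between arrays is a spread between pools and not between animals. The design text of the series mentions progesterone treatment of cultured ovaries, but the labels of the cultured samples give none, so whether either cultured pool received it is unknown here, and both are taken as labelled. The P4 and cultured ovaries differ in age as well as in culture. By the labels, no cultured array shares a chip ID batch with a P0 or P4 array, so culture and batch cannot be told apart.

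Serpins are suicide inhibitors: the protease cuts a reactive loop of the serpin, becomes covalently trapped, and the complex is taken up by receptors of the LDL receptor family. Alpha-2-macroglobulin works by another route, closing around a protease that cuts its bait region, and is cleared by the same receptor, Lrp1. In the ovary, plasminogen activators, plasmin and other extracellular proteases remodel the matrix as follicles form, grow and ovulate, and granulosa cells are known to secrete the Serpine2 protein. Serpinh1 is the exception in the group, since it inhibits no protease and serves as a collagen chaperone in the endoplasmic reticulum.

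RefSeq promoter entries of the GRCr8 assembly were matched for 3 of the 5 genes, Serpine2, Serpinh1 and Serpina1; Serping1 and A2m had no entry. Only bases before the outermost annotated start of each gene were used. The stretch of Serpine2, the 1 member that rose between P0 and P4, is shown beside that of Serpina1, which passed in no comparison, because their base composition differs. They lie on the minus strand at chr9:88637253-88637452 and chr6:128653126-128653375 and are written 5′ to 3′ on the gene's strand, with GC boxes (GGGCGG on either strand) in capitals.
Serpine2: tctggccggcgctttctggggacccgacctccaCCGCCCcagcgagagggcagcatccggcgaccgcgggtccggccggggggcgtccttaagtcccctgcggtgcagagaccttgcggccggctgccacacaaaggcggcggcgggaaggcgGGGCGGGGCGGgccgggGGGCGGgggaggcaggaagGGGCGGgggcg
Serpina1: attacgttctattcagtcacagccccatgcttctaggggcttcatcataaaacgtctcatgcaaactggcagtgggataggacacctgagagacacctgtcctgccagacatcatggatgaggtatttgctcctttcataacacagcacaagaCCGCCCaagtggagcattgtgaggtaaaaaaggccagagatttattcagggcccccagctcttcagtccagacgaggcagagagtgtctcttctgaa

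The 200 bases of Serpine2 were 78.5% G or C, above 98.3% of the same stretch in the 33469 promoters of the table, whose median was 51%. They held 5 GC boxes, with leftmost bases 167, 47, 42, 30 and 11 bases before the start, of which the pair at 47 and 42 shares a base and the one at 167 is on the opposite strand. At least 1 GC box was present in 24.2% of all promoters over the same stretch. The 250 bases of Serpina1 were 49.2% G or C and held 1 GC box, on the opposite strand with its leftmost base 97 bases before the start, against 30.5% of all promoters over that stretch. In neither stretch, nor in the 49 bases available for Serpinh1, was there a match on either strand to the TATA box TATAAA, the motif GTTAAT of the liver factor HNF1, the heat shock elements GAANNTTC and TTCNNGAA, the STAT site TTCNNNGAA or the nuclear receptor motif AGGTCA. These 6 motifs occurred in 5.46% to 11.2% of all promoters over the Serpine2 stretch and in 6.45% to 14.1% over that of Serpina1. The matches describe the letters only.

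The ovary label was checked against its markers: Zp2, an egg coat gene, read 282.4 to 1782.3 over the 6 arrays, and Inha, the inhibin subunit of granulosa cells, 238 to 1970.3. The arrays of a group correlated at 0.962 (P0), 0.969 (P4) and 0.965 (cultured) across probe sets, and array medians lay between 37.2 and 42.2. Precision is limited by having 2 arrays a group. Among 23 unspiked control probe sets the highest reading was 20, which serves as a mark of dimness. Probe sets whose mean log2 intensity fell in the lowest 30% were left out of the tests. Of the 12 member probe sets, 8 were tested and 4 were too dim: a pair for Serpina1 that read 1.4 to 3 and a pair for A2m that read 1.1 to 6.6. Those 4 read under the mark on all 6 arrays, so they give no information on a change. Changes are log2 differences of intensity plus a pseudocount of 7.7, tested with limma in 1 model of all 6 arrays, with p-values adjusted over 6118 probe sets and a threshold of 0.05. With 2 arrays against 2, an exact permutation test cannot give a two-sided p below 0.333.

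Between P0 and P4, the days when oocyte nests break down and primordial follicles assemble, 1 of the 8 tested member probe sets rose, that of Serpine2, and none fell by limma (1 was lower at an unadjusted p under 0.05). Over all tested probe sets, 1.08% passed in this comparison, 0.85% higher and 0.229% lower at P4, so the count of 1 in 8 rests on Serpine2 alone. These counts come from the fit without a block. With the replicate block, which pairs the P0 and P4 arrays by chip ID batch, M23566exon_s_at of A2m fell as well (limma adjusted p = 0.00739). The replicate block was fitted on the P0 and P4 arrays alone, so its estimate of spread differs too. More probe sets passed over all with that block too. The groups did not overlap for 4 member probe sets that were higher and 2 that were lower at P4, where 44.2% of all tested probe sets did not overlap, 18.6% higher and 25.7% lower. The median log2 change of the 8 was 0.14, against -0.05 over all tested.

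Serpine2, also called protease nexin 1 or glia-derived nexin, is a secreted inhibitor of thrombin, plasmin and the plasminogen activators. Its probe set A03913cds_s_at read 172.5 and 205 at P0, 463.8 and 515.5 at P4, and 302.5 and 335.4 in culture. Both P4 arrays lay above both cultured arrays, which in turn lay above both P0 arrays, without overlap. From 189 ± 23 at P0 to 490 ± 36.6 at P4 (SD, n = 2), Serpine2 rose by 1.34 on the log2 scale (SE 0.20, 95% interval 0.89 to 1.79, limma adjusted p = 0.0194), or 2.54-fold. The labels place P0 replicate 1 and P4 replicate 1 in 1 chip ID batch and the arrays numbered 2 in another, and the change was 1.39 within the first and 1.30 within the second. With the replicate block the limma adjusted p was 0.00209, and with the batch as a random block 0.00185. With quantile normalization the adjusted p was 0.0388, and without the intensity trend the call was lost (limma adjusted p = 0.051). The call ended without any 1 of the 6 arrays (limma adjusted p 0.0633 to 0.0839), including the cultured arrays, which enter only the shared estimate of spread, while the change stayed between 1.22 and 1.46.

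The cultured level of Serpine2, 319 ± 23.3 (SD, n = 2), stood between those of P0 and P4 and passed against neither. Against P0 the log2 change was 0.74 (SE 0.20, 95% interval 0.29 to 1.19, limma adjusted p = 0.0713), and against P4 it was -0.61 (SE 0.20, 95% interval -1.06 to -0.16, limma adjusted p = 0.184). In the order P0, cultured, P4, only the outer levels differed past the threshold. The probe set is of the type that may match several similar transcripts, so its signal need not come from Serpine2 alone.

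The levels of granulosa and oocyte markers are set beside those of Serpine2. Of 9 granulosa genes on the array, 8 were tested and their summed intensity was 1583.4 and 1555 at P0, 3565.9 and 2402.1 at P4, and 915.9 and 1033.9 in culture. The cultured sums lay below P0, and this came from Fst, the follistatin gene, which read 1010.6 and 813.9 at P0, 560.3 and 407.1 at P4, and 316.9 and 259 in culture. Without Fst the sums of the other 7 were 572.8 and 741.1 at P0, 3005.6 and 1995 at P4, and 599 and 774.9 in culture, so cultured and P0 overlapped. At P4, 2 genes rose, Inha and the aromatase gene Cyp19a1, and none fell by limma (4 higher and 1 lower, Fst, at an unadjusted p under 0.05), with a list median of 1.29. With the replicate block, Amh, the anti-Müllerian hormone gene, and Nr5a2 rose as well and Fst fell. In culture Fst alone fell against P0 (log2 change -1.64, limma adjusted p = 0.00407, lost without cultured replicate 2 at 0.0636), and Amh, Inha and Cyp19a1 fell against P4. Without P4 replicate 1, Cyp19a1 no longer passed at P4 (limma adjusted p = 0.0956), and the cultured fallers lost their calls without cultured replicate 1 (Amh, Inha and Cyp19a1, highest adjusted p = 0.0908) or, for Amh and Cyp19a1, cultured replicate 2 and, for Cyp19a1, P4 replicate 1. All 8 granulosa genes read above the mark on at least 1 array. Cyp19a1 read under it on both P0 arrays (5.6 and 16.2) and both cultured arrays (13.4 and 18.9), so at P4 it was at least 5.46-fold higher than in either group. Nr5a2 read 5.8 and 5.7 at P0, under the mark as well. The 5 tested oocyte genes summed to 1186.9 and 1218.7 at P0, 3795.1 and 4125.1 at P4, and 3096.1 and 2736.7 in culture, the order of groups that Serpine2 had. Of these, Zp1, Zp2 and Zp3 rose at P4 and in culture against P0, while Kit and Ddx4 passed in no comparison. Without P0 replicate 2 or P4 replicate 1, Zp1 lost its call at P4 (highest adjusted p = 0.0759), and Zp1 and Zp3 lost theirs in culture without either P0 or either cultured array (highest 0.104 and 0.167). The part of either cell type in the Serpine2 change was not tested, and in bulk RNA a smaller share of cells of a type and less RNA per cell cannot be told apart.

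**Figure D1:**
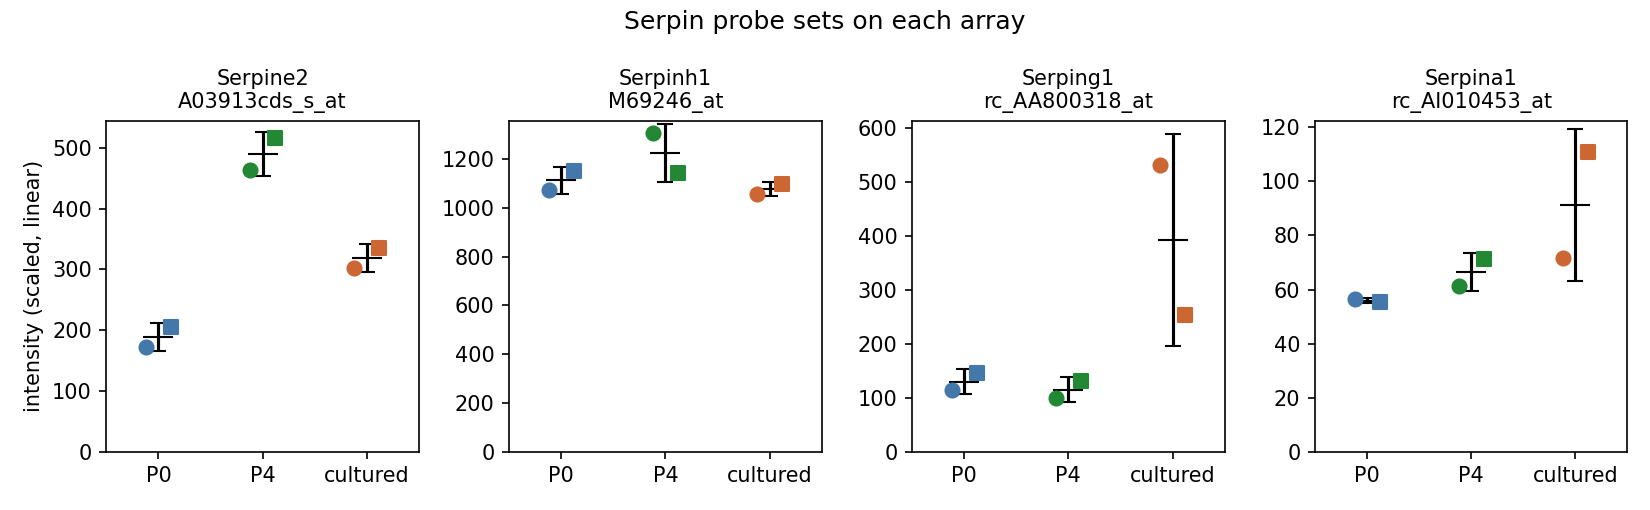
Intensity (linear, scaled by the authors) of the tested probe sets of Serpine2, Serpinh1, Serping1 and Serpina1 by group, with circles for replicate 1, squares for replicate 2 and bars for the mean ± SD of 2 arrays. Serpine2 is highest on the P4 arrays, Serpinh1 stays between 1057.6 and 1307.1, and Serping1 and Serpina1 are highest and most spread in culture.

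Serping1 encodes the C1 inhibitor, which blocks the complement proteases C1r and C1s as well as plasma kallikrein and factor XIIa. Its probe set rc_AA800318_at read 113.8 and 146.5 at P0, 99.1 and 131.5 at P4, and 530.7 and 253.9 in culture. Both cultured arrays were above all 4 others, with replicate 1 far above replicate 2. Between P4 and P0 the groups overlapped (log2 change -0.17, 95% interval -0.91 to 0.58, limma adjusted p = 0.895), and the change was -0.19 and -0.15 within the chip ID batches.

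In cultured ovaries, Serping1 averaged 392 ± 196 (SD, n = 2) against 130 ± 23.1 at P0 and 115 ± 22.9 at P4. It rose by 1.46 on the log2 scale against P0 (SE 0.33, 95% interval 0.71 to 2.20, limma adjusted p = 0.0361), or 2.74-fold. Against P4 it rose by 1.62 (SE 0.33, 95% interval 0.88 to 2.37, limma adjusted p = 0.0318), or 3.08-fold. Without cultured replicate 1, the higher array, the changes were 0.93 and 1.10 and neither passed (limma adjusted p = 0.18 and 0.174). The call against P0 also ended without either P0 array (adjusted p = 0.14 without replicate 1 and 0.0766 without replicate 2), and that against P4 without P4 replicate 1 (adjusted p = 0.15). With quantile normalization both missed the threshold (adjusted p = 0.0565 and 0.0541). Each cultured array has a chip ID batch of its own, shared with no P0 or P4 array, so culture and batch cannot be told apart. With the batch as a random block the calls stayed under the threshold (limma adjusted p = 0.0292 and 0.0245), but that fit cannot separate culture from batch either.

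Macrophage and leukocyte markers moved with Serping1, as did some markers of other cells. Of 9 on the array, 7 were tested (Ptprc, C1qb, C1qc, Fcgr2b, Lyz2, Cd14 and Cd74), and their summed intensity was 462.1 and 578.7 at P0, 319 and 383 at P4, and 3309 and 1696.1 in culture. The cultured array with more Serping1 also had the larger sum. Lyz2 made up most of both cultured sums and of the gap between them, at 2267 on replicate 1 and 955.7 on replicate 2. The other tested markers were higher on replicate 1 too, C1qc only slightly (159.6 and 151.5, beside 138.3 and 163.8 at P0). Against P0, 4 of the 7 rose in culture, with a list median of 1.29, and against P4 4 rose, with a median of 1.45. The 4 were Lyz2, Fcgr2b, C1qb and Cd14, of which Lyz2 and Fcgr2b passed in both comparisons without any 1 array, as did C1qb against P4. Against P0 the calls ended without either cultured array and without P0 replicate 1 for C1qb or P0 replicate 2 for Cd14 (highest limma adjusted p = 0.181 and 0.165), and against P4 Cd14 lost its call without either cultured array or P4 replicate 1 (highest 0.191). Of the defining markers, Itgam read 2.1 to 7.5 and Csf1r 6 to 20.9, while Ptprc, the leukocyte antigen CD45, read 22.8 to 41.6 and did not order the groups. Of 5 tested surface epithelium genes, the keratin genes Krt18 (log2 changes 2.21 and 2.57, limma adjusted p = 0.00469 and 0.00214) and Krt8 (0.92 and 1.48, adjusted p = 0.0323 and 0.00456) rose in culture against P0 and P4. Against P0, Krt18 lost its call without cultured replicate 2 (0.0679) and Krt8 without either P0 or either cultured array (highest 0.161). At an unadjusted p under 0.05 by limma, 3 of the list were higher and 2 lower in culture than at P0. Krt19 read 1103.3 and 1131.1 at P0 and 691 and 480.2 in culture, and Wt1 180.6 and 496.8 against 121 and 117.9. The sum of the list was 1798.6 and 2147.7 at P0, 1143.7 and 1592.5 at P4, and 1835 and 1820.9 in culture. The 4 tested erythroid genes summed to 5945.9 and 6088.7 at P0, 4386 and 3257.9 at P4, and 160.1 and 123.9 in culture, with the beta globin genes Hbb and Hbb-b1 falling in both comparisons with culture. The part of any of these cells in the Serping1 change was not tested.

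Serpina1 encodes alpha-1-antitrypsin, the plasma inhibitor of neutrophil elastase, made mainly by the liver. Its tested probe set rc_AI010453_at read 56.5 and 55.3 at P0, 61.4 and 71.3 at P4, and 71.5 and 111 in culture. The groups were ordered P0, P4, cultured without overlap; the lower cultured and the higher P4 array were nearly level. No neighbouring levels differed past the threshold, nor did the outer ones. From P0 to P4 the log2 change was 0.22 (95% interval -0.36 to 0.79, limma adjusted p = 0.806), from P0 to culture 0.61 (0.04 to 1.18, adjusted p = 0.215) and from P4 to culture 0.39 (-0.18 to 0.97, adjusted p = 0.578). The other Serpina1 probe sets, X16273cds_at and X16273cds_g_at, were among the 4 dim ones and read between 1.4 and 3.

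Liver RNA was looked for because liver is the main source of Serpina1 and A2m in the rat. Of 15 liver genes on the array, 10 were tested and none passed in any comparison by limma; at an unadjusted p under 0.05, 1 was lower at P4 than P0, 2 were lower in culture than P0 and 2 were higher in culture than P4. With the replicate block, 1 of them, the retinol-binding protein gene Rbp4, fell at P4 (adjusted p = 0.00856). Their summed intensity was 640.6 and 793.4 at P0, 477.5 and 552.5 at P4, and 537.5 and 775.1 in culture. Alb, the albumin gene, read 12.1 to 21.4, around the mark, and the fibrinogen gene Fgb read 4 to 9.7. The cultured array with more Serpina1, replicate 2, had the larger liver sum as well. Most of that gap was Rbp4, which read 162.8 on cultured replicate 1 and 379.3 on cultured replicate 2. Hp (122.3 and 99.5) and Hpx (67 and 43) were lower on replicate 2, and the other tested liver genes were higher on it. The part of liver RNA was not tested.

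Serpinh1 encodes HSP47, which binds procollagen in the endoplasmic reticulum until it is folded. Its probe set M69246_at read 1074 and 1150.3 at P0, 1307.1 and 1140.6 at P4, and 1057.6 and 1097.5 in culture. Both cultured arrays lay below both P4 arrays, and the other pairs of groups overlapped. From P0 to P4 the log2 change was 0.13 (95% interval -0.23 to 0.50, limma adjusted p = 0.809), from P0 to culture -0.04 (-0.41 to 0.32, adjusted p = 0.91) and from P4 to culture -0.18 (-0.54 to 0.18, adjusted p = 0.726). These intervals leave out a change of more than 0.54 on the log2 scale in either direction, the tightest bounds among the members. The second of them changed sign with quantile normalization (0.0088).

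A2m encodes alpha-2-macroglobulin, in the rat a strong acute phase protein that traps proteases of every class. Its 6 probe sets did not give 1 picture, and 4 of them were tested. The brightest on the mean over all 6 arrays, though not at P4, M23566exon_s_at, read 203.8 and 191.3 at P0, 28.6 and 82.2 at P4, and 450 and 304.4 in culture. Its 3 groups did not overlap, with both P4 arrays lowest and both cultured arrays highest.

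From P4 to culture, this A2m probe set rose from 55.4 ± 37.9 to 377 ± 103 (SD, n = 2), a log2 change of 2.73 (SE 0.38, 95% interval 1.87 to 3.59, limma adjusted p = 0.00465), or 6.62-fold. Its size rested on the P4 arrays, with a change of 2.07 without P4 replicate 1 and 3.38 without P4 replicate 2. The call ended without cultured replicate 1 (change 2.45, adjusted p = 0.0855). Between P4 and P0 the change was -1.84 (SE 0.38, 95% interval -2.71 to -0.98) and missed the threshold (limma adjusted p = 0.0583). With the replicate block, which pairs the P0 and P4 arrays of a chip ID batch, it passed (adjusted p = 0.00739), and the paired changes were -2.54 in the first batch and -1.15 in the second. It also passed without P4 replicate 2 (change -2.50, adjusted p = 0.00607). Between cultured and P0 the change was 0.88 (95% interval 0.02 to 1.74, adjusted p = 0.23).

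The probe set X13983mRNA_at of A2m read 104.3 and 100.2 at P0, 107.3 and 120.4 at P4, and 86.8 and 122.1 in culture. The cultured arrays spanned all others, and its log2 changes were 0.14, 0.01 and -0.13 for P4 against P0, cultured against P0 and cultured against P4 (limma adjusted p = 0.871, 0.984 and 0.893). Its 95% interval for cultured against P4, -0.66 to 0.39, does not meet that of M23566exon_s_at, 1.87 to 3.59, though the difference between probe sets was not itself tested. M23566exon_s_at, like the Serpine2 probe set, is of the type that may match several similar transcripts, and which transcript each A2m probe set reads is not known here.

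The probe set rc_AA900582_at of A2m read 103.3 and 112 at P0, 71.9 and 85.1 at P4, and 114.3 and 121.1 in culture, the same order of groups as M23566exon_s_at without overlap. Its changes were smaller and none passed: -0.42 from P0 to P4 (95% interval -0.90 to 0.06, limma adjusted p = 0.456), 0.12 from P0 to culture (adjusted p = 0.807) and 0.54 from P4 to culture (0.06 to 1.03, adjusted p = 0.283). The last tested one, M22670cds_g_at, read 15.3 to 29.7 over the 6 arrays, near the mark of 20, with log2 changes of 0.39, 0.22 and -0.17 (adjusted p = 0.676, 0.753 and 0.898). The dim pair, M22670cds_at and rc_AI113046_at, read 1.1 to 6.6.

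**Figure D2:**
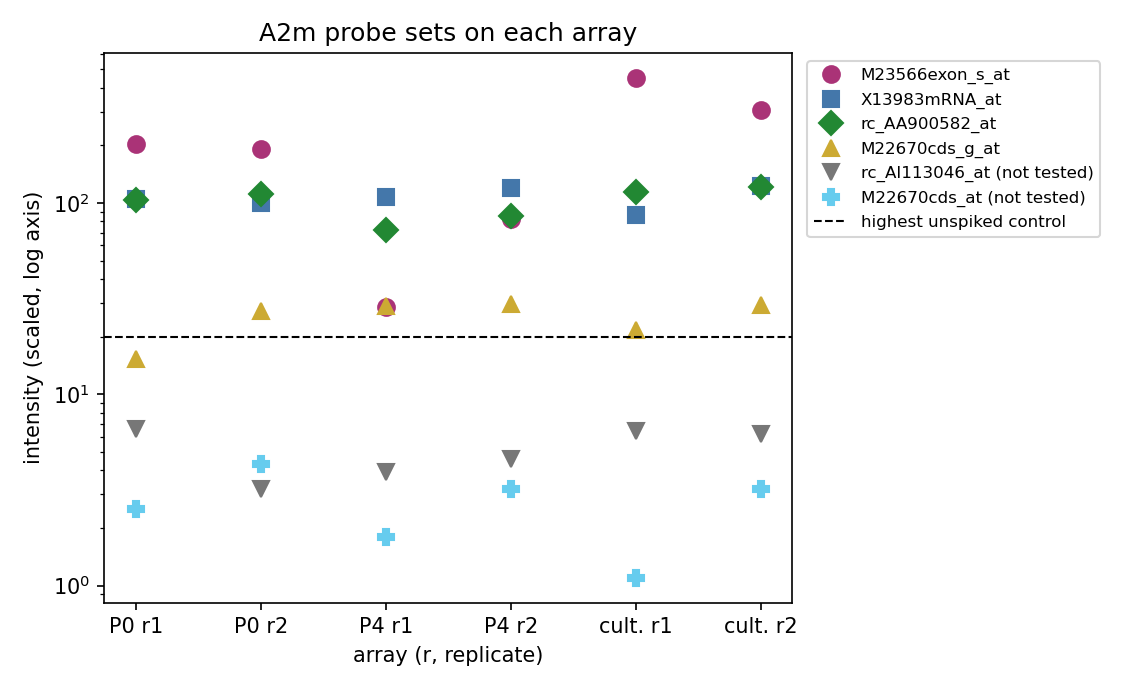
Intensity of the 6 A2m probe sets (log axis) on each of the 6 arrays, with the dashed line at 20, the highest reading of the unspiked controls. M23566exon_s_at drops on both P4 arrays and is highest in culture, while X13983mRNA_at stays between 86.8 and 122.1 and a pair of probe sets lies under the line throughout.

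The A2m probe set that passed also moved beside the macrophage and leukocyte markers, whose sum was lowest at P4 and highest in culture. C1qb, a complement subunit made by macrophages, read 44.2 and 116.4 at P0, 10.4 and 19.4 at P4, and 325.9 and 240 in culture, the same order of groups. Lyz2 had that order without overlap too. For C1qc the P0 and cultured arrays overlapped, and for Ptprc, Fcgr2b, Cd14 and Cd74 the P0 and P4 arrays did. In that list none of the 7 tested genes passed between P4 and P0 by limma (2 were lower at an unadjusted p under 0.05), with a median of -0.16. With the replicate block, under which this A2m probe set passed too, C1qb and C1qc fell (adjusted p = 0.004 and 0.0467). The order was not particular to this list. Krt8 of the surface epithelium list read 145.3 and 129.9 at P0, 86.7 and 95.3 at P4, and 260.5 and 274.4 in culture. The other tested surface epithelium genes did not have that order without overlap. The part of any of these cells in the A2m values was not tested.

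**Figure D3:**
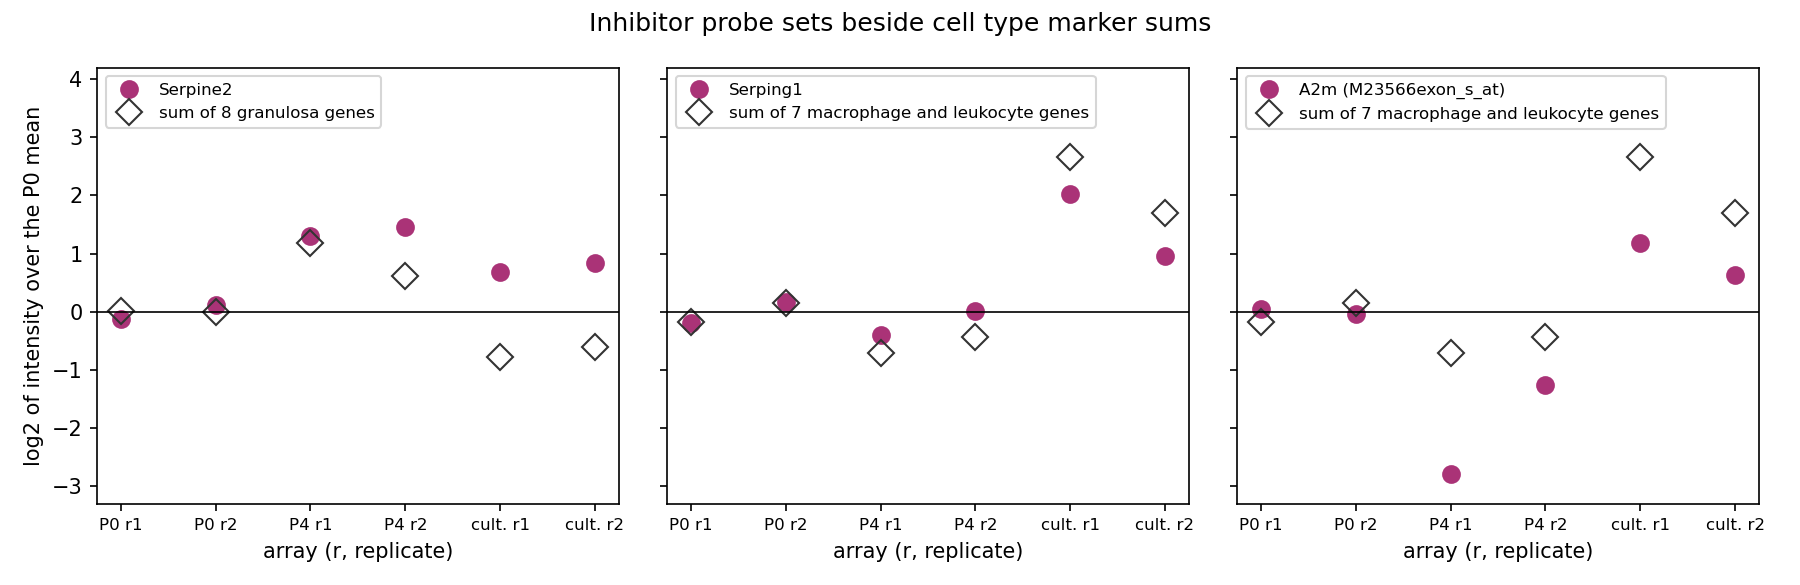
Log2 of each array's intensity over the mean of the P0 arrays for Serpine2, Serping1 and the A2m probe set M23566exon_s_at (filled circles), each beside the summed intensity of a marker list (open diamonds). Serpine2 is above the granulosa sum in culture, where that sum is below 0 largely through Fst. Serping1 and A2m are on the same side of 0 as the macrophage and leukocyte sum in culture, most of which is Lyz2.

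In culture, 1 of 8 member probe sets rose against P0 and 2 against P4, with no faller by limma (0 and 1 were lower at an unadjusted p under 0.05). Of the 6118 probe sets, 5.43% passed for cultured against P0, 3.48% higher and 1.95% lower in culture, and 2.78% for cultured against P4, 2.16% higher and 0.621% lower. Against P0 the groups did not overlap for 5 of the 8, all higher in culture, beside 50.4% of all tested (21.3% higher and 29% lower). Against P4 they did not overlap for 4 that were higher and 2 that were lower, beside 43.6% of all tested (19.1% higher and 24.5% lower). The median log2 change of the 8 was 0.41 against P0 and 0.13 against P4, beside -0.08 and -0.04 over all tested. The 3 comparisons share arrays, so their values are set side by side and are not independent.

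**Figure D4:**
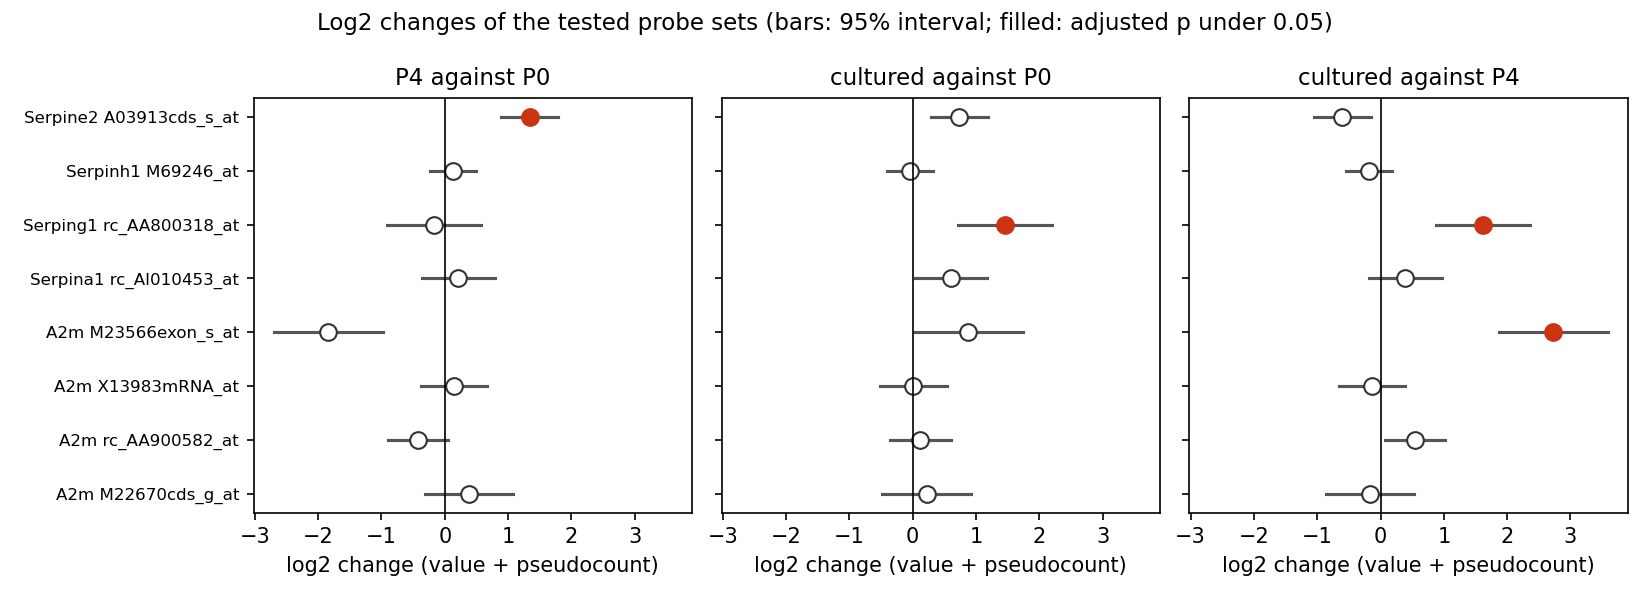
Log2 change (intensity plus pseudocount) of the 8 tested probe sets in each comparison, with 95% intervals from limma and filled points where the adjusted p is under 0.05. Serpine2 passes for P4 against P0, Serping1 in both comparisons with culture, and M23566exon_s_at of A2m for cultured against P4 only, while the other 3 A2m probe sets pass in none.

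The genes whose profiles lay nearest to the members were taken by the root mean square distance between centred log2 profiles over the 6 arrays. For Serpine2 these were Ephx2, a soluble epoxide hydrolase (distance 0.0965, r = 0.989), the phospholipase D gene Pld1 (0.149, r = 0.964) and Clpb, a mitochondrial disaggregase (0.151, r = 0.967). Clpb read 35.4 and 39 at P0, 108.3 and 113.8 at P4, and 86 and 69.6 in culture; Ephx2 read 11.1 and 15.9 and Pld1 19 and 20.7 at P0, under or near the mark of 20. Of the 3, Clpb alone passed, at P4 against P0 (log2 change 1.40, limma adjusted p = 0.0262) and in culture against P0 (0.92, adjusted p = 0.045), in both not without any 1 array (highest adjusted p = 0.183).

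For Serping1 the nearest were Arl11, a small GTPase-like gene (distance 0.152, r = 0.992), Ptpn6, the phosphatase SHP-1 of blood cells (0.188, r = 0.972) and Npy, neuropeptide Y (0.189, r = 0.972). Npy read 63.4 and 71.5 at P0, 41.9 and 61.8 at P4, and 228.9 and 160.7 in culture, so that, as for Serping1, the first cultured array was the higher. For the A2m probe set the nearest were farther off: Cxcl13, a chemokine for B cells (0.459, r = 0.925), Fxyd2, a sodium pump subunit (0.465, r = 0.924) and Hpgds, the hematopoietic prostaglandin D synthase (0.489, r = 0.96). Cxcl13 read 84.2 and 76.2 at P0, 27.1 and 24 at P4, and 244.9 and 163.8 in culture. Several neighbours were partly under the mark: Ptpn6 read 3.4 to 16.3 on the P0 and P4 arrays, Arl11 10.7 to 24.2, and at P4 Fxyd2 read 3.9 on both arrays and Hpgds 7.1 and 9.3. Their distances and order rest on such readings and are not to be taken as exact. All correlations are descriptions over 6 arrays from 3 groups.

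Relatives of the members were mostly dim. Of 14 other serpin genes on the array, 4 were tested: Serpinb9, an intracellular inhibitor of granzyme B, Serpind1 (heparin cofactor II), Serpina3n and Agt, the angiotensin precursor, which is a serpin without inhibitor activity. Serpinb9 rose in culture, to 348 ± 56.1 against 170 ± 32.4 at P0 (SD, n = 2; log2 change 1.00, limma adjusted p = 0.0332), and 273 ± 21.5 at P4 fell between. The call ended without either P0 array or either cultured array (highest adjusted p = 0.19) and with quantile normalization (adjusted p = 0.06). The other 3 had log2 changes between -0.19 and 0.34 in the 3 comparisons, and no serpin of the list fell by limma (none at an unadjusted p under 0.05).

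Of 7 relatives of A2m and receptors for inhibitor complexes on the array, 5 were tested and 1 passed. C3, the central complement protein and a member of the macroglobulin superfamily, was under the mark on all P0 and P4 arrays and averaged 428 ± 265 in culture (SD, n = 2), at least 21.4-fold higher than either (limma adjusted p = 0.000138 and 0.000121, passing without any 1 array). The cultured arrays read 615.6 and 241.1, so without cultured replicate 1 the bound was 12.1-fold. Lrpap1, the chaperone of the clearance receptor Lrp1, had log2 changes of 0.41, 0.22 and -0.19 for P4 against P0, cultured against P0 and cultured against P4, and the endocytic receptor Lrp2 had -0.71 from P0 to P4 (adjusted p = 0.207) and -0.62 from P0 to culture (adjusted p = 0.165). Pzp and Mug1, relatives of A2m, were among 12 related genes whose 14 probe sets of their own were left out as dim, none reading above 28.4 on any array. Mug1 was also named with other genes on 3 probe sets, which no list counts: M22993cds_s_at read 35.5 to 57.8, J03524_s_at 13.2 to 26 and M22360_s_at 1.9 to 3.8, and none of these can be assigned to Mug1 alone.

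Most of the proteases and receptors around the serpins passed in no comparison. None of 21 tested genes in a list built around the fibrinolytic, clotting and complement cascades passed at P4 by limma (1 each way at an unadjusted p under 0.05), with a median of -0.16. The list also holds Mmp23, Dpp4, Gzmb, Mcpt1 and Cma1, which lie outside these cascades. The 1 higher at P4 was Mmp23 and the 1 lower was Mcpt1. The mast cell protease gene Mcpt1 fell with the replicate block (adjusted p = 0.0243). In culture 4 of the 21 rose against P0 and 3 against P4, beside 3.48% and 2.16% of all tested probe sets. None of the 21 fell in culture (3 and 2 lower at an unadjusted p under 0.05), and the medians were 0.08 and 0.09. C1s, a complement protease that Serping1 blocks, rose from 121 ± 7.07 at P0 and 112 ± 9.12 at P4 to 735 ± 80.9 (SD, n = 2; log2 changes 2.53 and 2.63, adjusted p = 0.000159 and 0.000121) and passed without any 1 array. C1r, which Serping1 also blocks, did not pass in culture (log2 changes 0.58 against P0 and 0.74 against P4, limma adjusted p = 0.27 and 0.244). Cfd, the complement protease factor D, was at least 11.1-fold higher than at P0 and at least 11.6-fold higher than at P4 (adjusted p = 0.000826 and 0.000789) and also passed without any 1 array.

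Of the plasminogen system that Serpine2 acts on, the urokinase receptor gene Plaur was at least 2.7-fold higher in culture than in either other group (limma adjusted p = 0.0196 against P0 and 0.0112 against P4). Plau, urokinase itself, averaged 93.8 ± 15.3 in culture against 44.1 ± 0.212 at P0 (SD, n = 2; log2 change 0.96, adjusted p = 0.0444). Plaur lost the call against P0 without either P0 or either cultured array (highest adjusted p = 0.112), and that against P4 without either P4 array or cultured replicate 1 (highest 0.0973). Plau lost its call without any 1 of the 6 (highest 0.185). The plasminogen activator gene Plat passed in no comparison (limma adjusted p = 0.922 for P4 against P0, 0.164 for cultured against P0 and 0.344 for cultured against P4). Neither did the thrombin gene F2. In the fit without a block, Mcpt1 had log2 changes of -1.23 from P0 to P4 (adjusted p = 0.101) and 1.32 from P4 to culture (adjusted p = 0.0539, and 0.0356 to 0.28 with an array left out).

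Among 20 tested genes for collagens and their folding enzymes, the setting in which Serpinh1 acts, 3 rose at P4 and none fell by limma (1 lower at an unadjusted p under 0.05), with a list median of 0.06. They were Col11a1, a minor fibrillar collagen (104.5 ± 19.5 against 25.5 ± 12.4, log2 change 1.80, adjusted p = 0.0304), the collagen lysyl hydroxylase Plod2 (379 ± 113 against 147 ± 16.3, 1.30, adjusted p = 0.0422) and Pcolce, the enhancer of procollagen C-proteinase (686 ± 30.5 against 324 ± 38.7, 1.07, adjusted p = 0.0453; SD, n = 2). Plod2 also rose in culture against P0 (log2 change 1.16, adjusted p = 0.0251). Lox, a lysyl oxidase, fell at P4 with the replicate block (log2 change -0.79, adjusted p = 0.033 against 0.32 without the block). In culture against P4 none of the 20 passed by limma (1 higher and 2 lower at an unadjusted p under 0.05), with a median of -0.23. Leaving out an array ended the P4 call of Pcolce each time, that of Plod2 for all but P4 replicate 2, and that of Col11a1 for all but P0 replicate 1 and P4 replicate 2 (highest adjusted p = 0.214), and the cultured Plod2 call ended without either P0 or either cultured array (highest 0.154). With quantile normalization Col11a1 still passed (adjusted p = 0.0425) and Plod2 and Pcolce did not at P4 (0.0616 and 0.061).

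Of 14 other secreted or cysteine protease inhibitors tested, none passed at P4 by limma (none at an unadjusted p under 0.05), 1 rose in culture against P0 and 2 against P4, with none falling (1 and 0 lower at an unadjusted p under 0.05). Cstb, the cathepsin inhibitor cystatin B, averaged 663 ± 72.6 in culture against 360 ± 2.4 at P0 and 327 ± 19.2 at P4 (SD, n = 2; log2 changes 0.86 and 1.00, limma adjusted p = 0.03 and 0.0218). Timp1, an inhibitor of matrix metalloproteases, rose against P4 (log2 change 0.93, adjusted p = 0.0345) and not past the threshold against P0 (0.65, adjusted p = 0.0916). Each of the Cstb and Timp1 calls ended without either cultured array or either array of the other group in it (highest adjusted p = 0.246). Timp3 was lower in culture and did not pass (log2 change -1.10 against P0, limma adjusted p = 0.0929, and -0.59 against P4, adjusted p = 0.482). Timp2 was higher in both and did not pass. Across the 5 lists together, 3 of 64 tested genes rose at P4, 8 in culture against P0 and 6 in culture against P4. Of all tested probe sets, 0.85%, 3.48% and 2.16% rose in these comparisons. The lists count the brightest probe set of each gene, and the shares count every tested probe set.

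**Figure D5:**
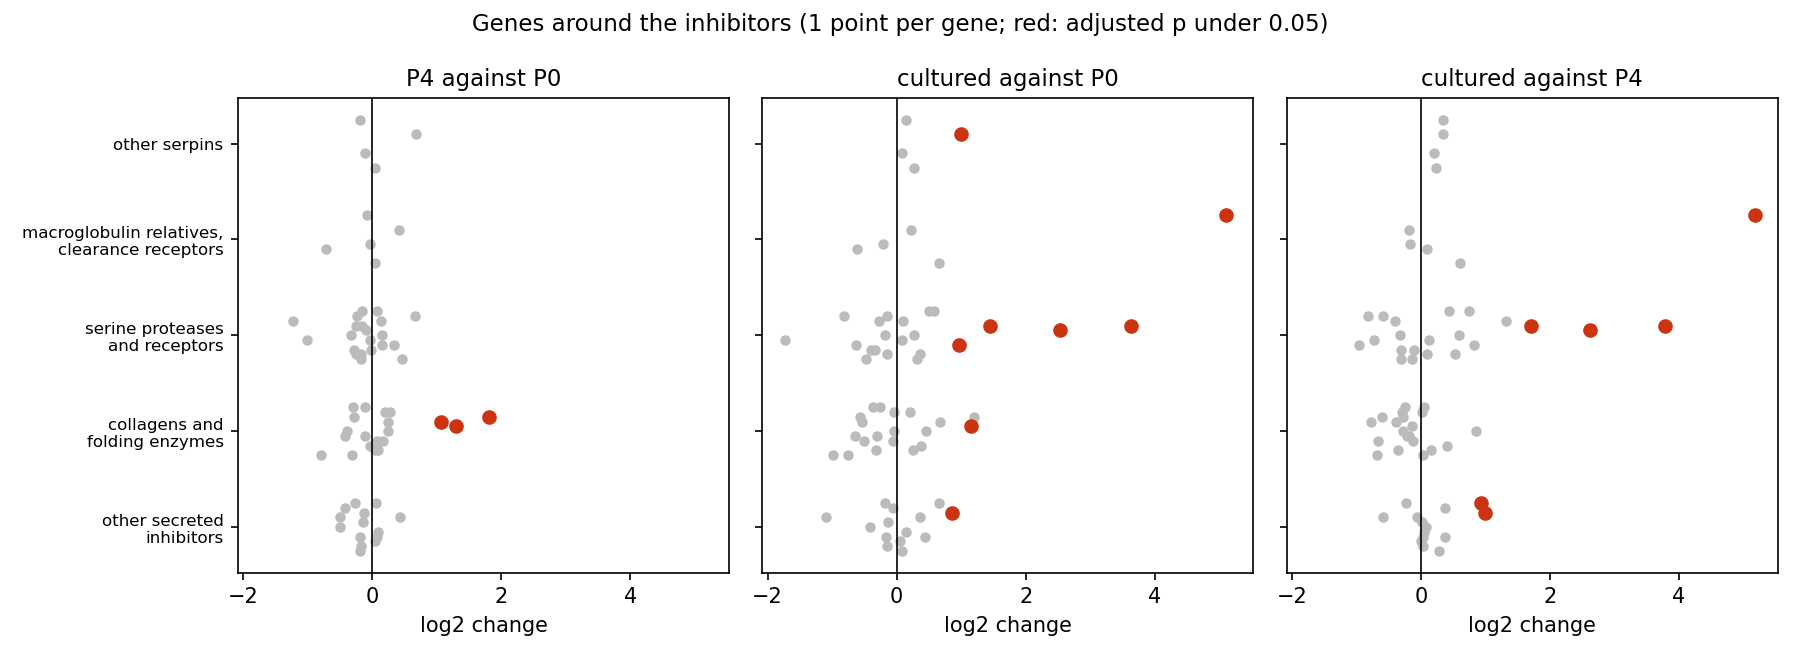
Log2 change of each tested gene in 5 lists around the inhibitors (1 point per gene, its brightest probe set) in the 3 comparisons, with large red points where the limma adjusted p is under 0.05. The red points, 3, 8 and 6 in number, all lie to the right of 0, and C3, at the far right in culture, was under the mark of 20 at P0 and P4.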

How the data were processed

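Biotin-labelled total RNA was run by standard Affymetrix methods, per the labels' protocols. The deposited table holds linear probe set intensities, scaled by the authors to a similar level: without the outer 2% at each end, array means lay between 124 and 125. The summary algorithm is not given in the sources used here, and no detection calls were used. The values were kept as deposited.

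Symbols came from the platform annotation, checked by gene number against a RefSeq table of GRCr8 (7018 probe sets with 1 symbol, 308 with several, 1473 with none; 6994 matched). Of 8799 probe sets, 59 controls and 2622 dim ones (mean log2 under the 30th percentile) were left out. The pseudocount is the 20th percentile of all values. Group means were fitted with limma 3.58.1 in R 4.3.3 (eBayes with an intensity trend, 3 residual and 6.45 prior degrees of freedom), two-sided, with Benjamini-Hochberg adjustment over 6118 probe sets. The procedure was tested on simulated data. A fold given as "at least" has arrays under 20 set to 20, a level chosen with these data in view. List genes are counted on their brightest tested probe set; the genes to name were all member probe sets, per comparison up to 4 genes per pathway list and 2 per cell type list with the smallest p, and the 3 nearest profiles of each member that passed. Marker and list genes named beyond these were chosen after their values were seen. Alternatives were other pseudocounts and filters, quantile normalization, no trend, both blocks and leaving out each array. The replicate block was fitted without the cultured arrays. The members and lists were chosen with earlier results of these data known. The P0 and P4 arrays are paired by chip ID batch, per the labels; their deviations correlated at 0.33 across probe sets.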

Additional observations from a re-analysis of the deposited data

How the results depend on the processing

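The count of changed member probe sets was 1, 1 and 2 for P4 against P0, cultured against P0 and cultured against P4; for all probe sets it was 66, 332 and 170, and for the 5 lists 3, 8 and 6. Without the filter on dim probe sets the member counts in culture became 0 and 1, the P4 count over all became 23 and that of the lists 0. A filter at the 50th percentile gave 5 and 3 list genes in culture. Quantile normalization gave 0 and 1 members in culture and 1 list gene at P4. Without the intensity trend the member counts were 0, 0 and 1, the P4 count over all 29, and the list counts 0 at P4 and 4 in culture against P0. For P4 against P0, the chip ID batch as a random block gave 2 members and 335 probe sets. With the replicate block, fitted without the cultured arrays, the counts were 2 members, 314 probe sets and 5 list genes. In that fit the calls of 1 member probe set, M23566exon_s_at of A2m, and of 2 list genes, Mcpt1 and Lox, changed.

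With each array left out in turn, the member counts ranged from 0 to 1, 0 to 1 and 0 to 2, those over all probe sets from 15 to 55, 90 to 353 and 86 to 193, and those of the lists from 0 to 2, 3 to 7 and 3 to 7. These fits have fewer arrays and thus fewer degrees of freedom. The cause of the other differences was not tested. The sign turned only where the change was near 0. Leaving out arrays gave Serping1 -0.36 to 0.02 for P4 against P0 (0.0051 without P0 replicate 2 and 0.024 without P4 replicate 1) and Serpinh1 -0.094 to 0.0045 for cultured against P0, which was 0.0088 with quantile normalization. X13983mRNA_at of A2m ranged from -0.22 to 0.24 for cultured against P0 (-0.016 without P0 replicate 2, -0.22 without cultured replicate 2) and from -0.36 to 0.097 for cultured against P4. M22670cds_g_at of A2m ranged from -0.080 to 0.52 and from -0.33 to 0.0021. The other member changes kept their direction under all alternatives run. With the lower pseudocount of 1 and the one at the 40th percentile no member call changed.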
